A study of Mus musculus with 8 samples.

Results

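Class I, IIa and IV histone deacetylases are the enzymes that take acetyl groups off histone tails and other proteins, and 9 genes encode them in the mouse. Hdac1, Hdac2, Hdac3 and Hdac8 make up class I, Hdac4, Hdac5, Hdac7 and Hdac9 class IIa, and Hdac11 class IV. They were followed in the annulus fibrosus (AF), the fibrocartilage ring around the disc, of mice that lack Abcc6, the transporter whose loss lowers systemic pyrophosphate and models pseudoxanthoma elasticum. The family was chosen by class, and it was chosen because Hdac2 had been read as lower in the knockout mice of this series. The genotype values of Hdac2 are therefore a description here and carry no test. The 9 genes stand among 19505 genes named on the array, and 8 of them were measured, each by 1 probe set. Hdac5 was not analysed here.

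Class I deacetylases work mostly inside corepressor assemblies, Hdac1 and Hdac2 in the Sin3, NuRD and CoREST complexes and Hdac3 in the NCoR and SMRT complex, where removal of acetyl groups is linked to a silent gene. Class IIa proteins have little catalytic activity of their own, bind MEF2 transcription factors and leave the nucleus on 14-3-3 proteins once kinases phosphorylate them. In cartilage and bone, Hdac4 is known as a brake on chondrocyte hypertrophy, Hdac3 is needed for normal skeletal growth, and deacetylases act at several steps of osteoclast formation.

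The knockout mice (KO, mice 6, 7, 8 and 9) were Abcc6 -/- through a global deletion and the wild-type mice (WT, mice 1, 2, 3 and 5) carried intact Abcc6. All 8 were females aged 7 months, and the mice with the deletion are described as C57BL6J. AF from the lumbar discs of a mouse was pooled, so that each Mouse Clariom S array held the RNA of 1 mouse and the mouse is the replicate. Values are log2 signals, on which a difference of 1 is a doubling, and signals of different genes cannot be ranked against each other on this array.

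Abcc6 did not check the genotypes, since its probe set was under the negative control median in 7 of 8 mice (5.01 to 6.17 log2 in KO and 4.97 to 5.25 log2 in WT). The arrays differed in control contrast, the median of the positive minus that of the negative control probe sets, which falls when signal and background come closer together. It was 2.99, 2.37, 4.30 and 2.85 log2 in KO mice 6, 7, 8 and 9, against 4.28, 3.17, 4.22 and 3.61 log2 in WT mice 1, 2, 3 and 5. The disc matrix genes Acan and Comp, which do not mark AF alone, were strongly measured in every mouse. So were markers of neutrophils, the bone gene Ibsp, the osteoclast gene Acp5 and the erythroid gene Alas2. In such bulk tissue, fewer cells of a type and less RNA per cell cannot be told apart.

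Of the 8 measured deacetylases, Hdac2 was lower in KO AF and was the 1 gene at the cutoff of the study (unadjusted p at most 0.01 and fold change of at least 1.75). None of the other 7 passed. Over all 22206 probe sets, 161 or 0.725% reached this cutoff. Those lower in KO were 0.297% and those higher in KO 0.428%. Because Hdac2 led to the choice of the family, nothing is read from its count of 1. After Benjamini-Hochberg adjustment of the limma p-values over all probe sets, 0% passed 0.05, although 1172 probe sets had an unadjusted p under 0.05. An unpaired test on each probe set alone gave 1051, and again 0 after adjustment. Adjusted p-values of the other 7 members ran from 0.848 to 0.975.

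Hdac2, the catalytic subunit shared by several corepressor complexes, stood at 8.38, 7.48, 8.90 and 7.25 log2 in KO mice 6, 7, 8 and 9. In WT mice 1, 2, 3 and 5 it stood at 9.98, 8.91, 9.27 and 9.25 log2. Every KO mouse was below every WT mouse, but KO mouse 8 and WT mouse 2 nearly met, with a KO minus WT difference of -0.00504 log2, and KO mice 7 and 9 had the lowest signals. The mean was 8.003 ± 0.77 log2 in KO and 9.35 ± 0.45 log2 in WT mice (SD, n = 4 each). The log2 fold change was -1.35 (standard error 0.41), so that the KO signal was 0.393 of that in WT mice. Separation without overlap was found for 2.53% of all probe sets. It depended on scaling for Hdac2, since after each array was centred on its median KO mouse 8 (9.01 log2) passed WT mouse 2 (8.88 log2), whereas after quantile normalization the genotypes lay further apart (highest KO value 8.69 log2, lowest WT value 8.98 log2).

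**Figure D1:**
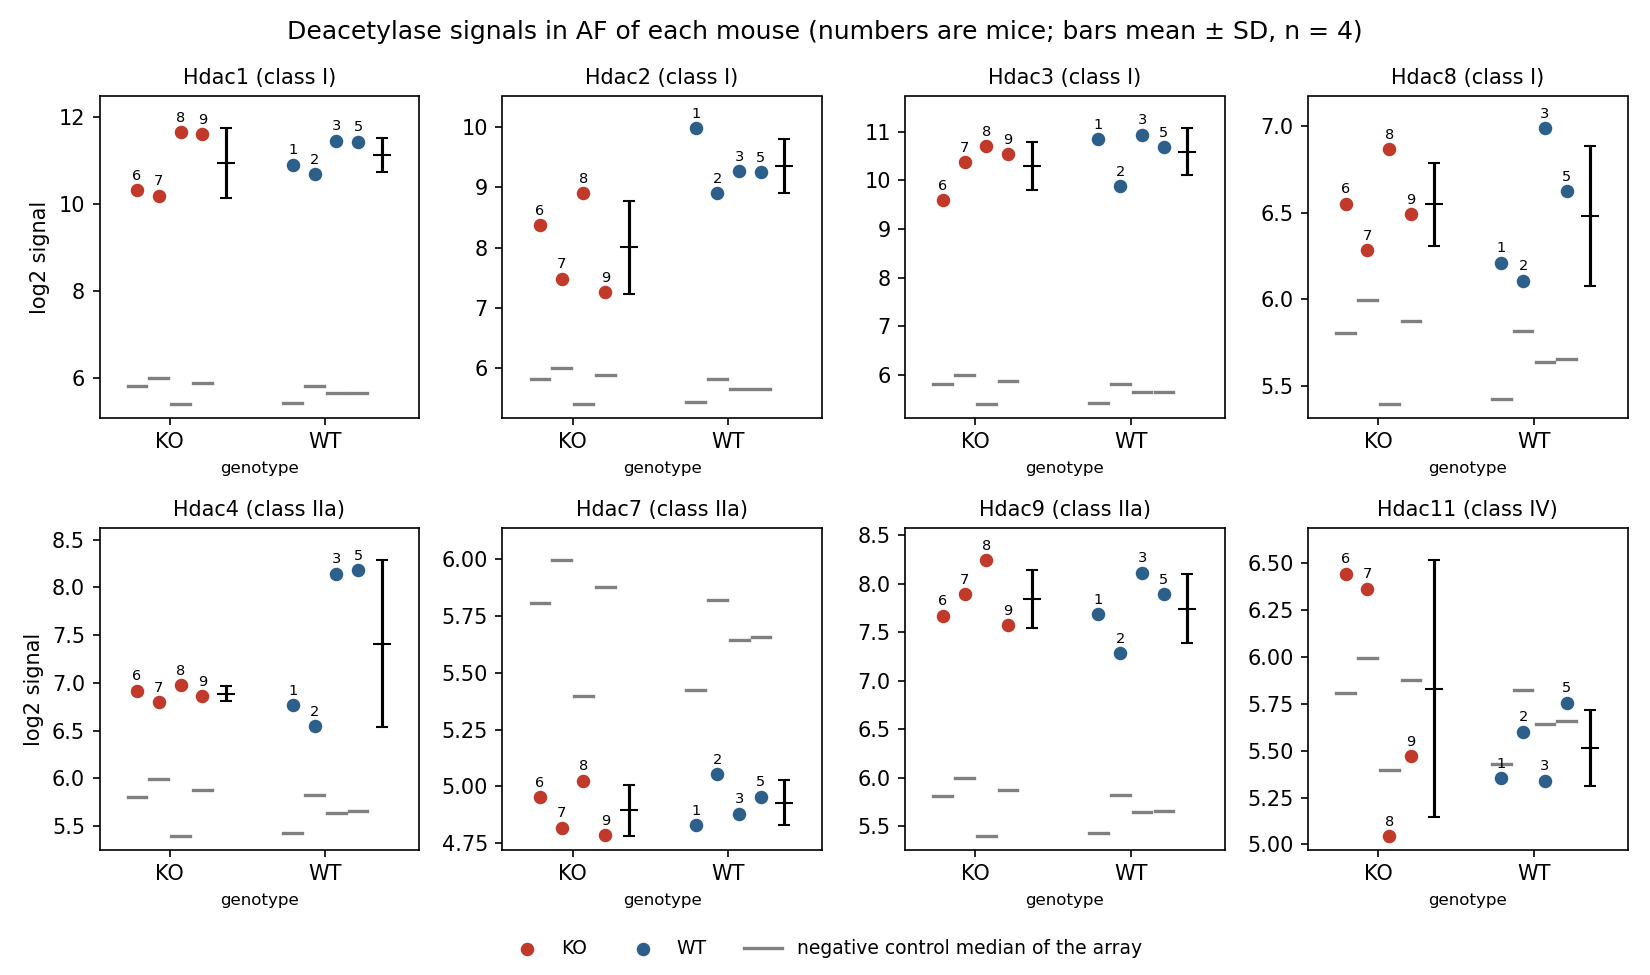
Log2 signal of the 8 measured deacetylases (vertical axis, a separate range in each panel) in KO (left) and WT mice (right), with the mouse number above each point, the mean ± SD (n = 4) beside it and a grey line at the negative control median of each array. KO mouse 8 and WT mouse 2 nearly meet in Hdac2, WT mice 3 and 5 stand apart in Hdac4, and Hdac7 lies below the grey lines in all 8 mice.

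Hdac1, the closest relative of Hdac2 and its usual partner in the same complexes, gave no such difference. It measured 10.31, 10.19, 11.65 and 11.60 log2 in KO mice 6, 7, 8 and 9, against 10.90, 10.68, 11.45 and 11.43 log2 in WT mice 1, 2, 3 and 5. The KO mice fell into a low pair, mice 6 and 7, and a high pair, mice 8 and 9, that lay on either side of all WT values. The mean was 10.94 ± 0.80 log2 in KO and 11.12 ± 0.39 log2 in WT mice (SD, n = 4 each). The log2 fold change was -0.18 with a standard error of 0.41 and a 95% interval of -1.08 to 0.72 (adjusted p = 0.922 by limma). KO mouse 9, which had the lowest Hdac2 signal of all mice, had the second highest Hdac1 signal. Across the 8 mice the 2 genes were weakly related (Pearson's r = 0.21). Whether their genotype differences differed from each other was not tested.

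Hdac3, the deacetylase of the NCoR and SMRT complex, stood at 9.59, 10.38, 10.71 and 10.54 log2 in KO mice 6, 7, 8 and 9. In WT mice 1, 2, 3 and 5 it stood at 10.85, 9.88, 10.94 and 10.68 log2. A single low mouse was found in each genotype, KO mouse 6 and WT mouse 2, and the other 6 mice lay between 10.38 and 10.94 log2. This gave a log2 fold change of -0.28 (standard error 0.35, 95% interval -1.06 to 0.49, adjusted p = 0.866 by limma). Without KO mouse 6 it was -0.047, and without WT mouse 2 it was -0.52.

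Hdac8, a class I enzyme that works outside these complexes and deacetylates the cohesin subunit Smc3, overlapped between the genotypes. Its signal ran from 6.28 to 6.86 log2 in KO and from 6.11 to 6.98 log2 in WT mice, and the KO range lay inside the WT range. The log2 fold change was 0.07 (standard error 0.29, 95% interval -0.58 to 0.71, adjusted p = 0.960 by limma). Its direction turned without KO mouse 8, WT mouse 1 or WT mouse 2. Over the 4 class I genes, 3 were lower and 1 was higher in KO mice. Their median log2 fold change was -0.23, beside a median of 0.03 over all probe sets tested, and Hdac2 is 1 of these 4. The class I median was -0.0064 after quantile normalization and 0.09 with the control contrast as a covariate, so its direction turned.

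Among class IIa genes, Hdac4 had the most unequal spread. It was 6.92, 6.80, 6.97 and 6.86 log2 in KO mice 6, 7, 8 and 9, against 6.76, 6.54, 8.14 and 8.18 log2 in WT mice 1, 2, 3 and 5. The 4 KO mice were nearly alike, WT mice 1 and 2 lay just below them, and WT mice 3 and 5 lay more than 1 log2 above all others. The mean was 6.89 ± 0.08 log2 in KO and 7.41 ± 0.87 log2 in WT mice (SD, n = 4 each). The SD was thus 11.6 times as large in WT as in KO mice, and a ratio of this size or more was found for 53 of 22206 probe sets (0.239%), a comparison chosen after the values had been seen. The log2 fold change was -0.52 (standard error 0.40, 95% interval -1.42 to 0.38, adjusted p = 0.848 by limma), and it was -0.28 without WT mouse 3 and -0.26 without WT mouse 5.

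Hdac9, another MEF2-binding member, overlapped throughout. It was 7.67, 7.89, 8.24 and 7.57 log2 in KO mice 6, 7, 8 and 9, against 7.68, 7.28, 8.11 and 7.89 log2 in WT mice 1, 2, 3 and 5. Its log2 fold change was 0.10 (standard error 0.29, 95% interval -0.54 to 0.74, adjusted p = 0.940 by limma), and it turned negative without KO mouse 8 or WT mouse 2.

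Hdac7, known from endothelial and lymphoid cells, lay below the negative control median in 8 of 8 mice. Its signal was 4.78 to 5.03 log2 in KO and 4.83 to 5.05 log2 in WT mice, so this probe set was not shown to measure Hdac7 above background and no fold change is read from it. The 3 class IIa genes had a median log2 fold change of -0.03, which is the value of Hdac7 (0.0030 without KO mouse 9).

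Hdac11, the sole class IV enzyme, which also removes fatty acyl groups from lysine, was near background. It measured 6.44, 6.36, 5.05 and 5.47 log2 in KO mice 6, 7, 8 and 9, against 5.35, 5.60, 5.34 and 5.76 log2 in WT mice 1, 2, 3 and 5. KO mice 6 and 7 were above all WT mice, and KO mouse 8 was below them. It exceeded the array's own negative control median in 2 KO mice and 1 WT mouse. Its log2 fold change was 0.32 (standard error 0.36, 95% interval -0.47 to 1.10, adjusted p = 0.859 by limma), and 0.11 without KO mouse 6. The class IIb enzymes Hdac6, a cytoplasmic tubulin deacetylase, and Hdac10, a polyamine deacetylase, had log2 fold changes of 0.03 (standard error 0.33, adjusted p = 0.983 by limma) and -0.10 (standard error 0.33, adjusted p = 0.945 by limma), and both turned without a single mouse (Hdac6 at -0.14 without KO mouse 6, Hdac10 at 0.16 without KO mouse 7).

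Members differed in how far they stood above the negative controls of their own arrays. Hdac1, Hdac2, Hdac3, Hdac4, Hdac8 and Hdac9 were above the negative control median in 8 of 8 mice. Against the 95th percentile of the negative controls, Hdac1 passed in 6 mice, Hdac3 in 5, Hdac2 in 1 and the other 5 members in none.

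**Figure D2:**
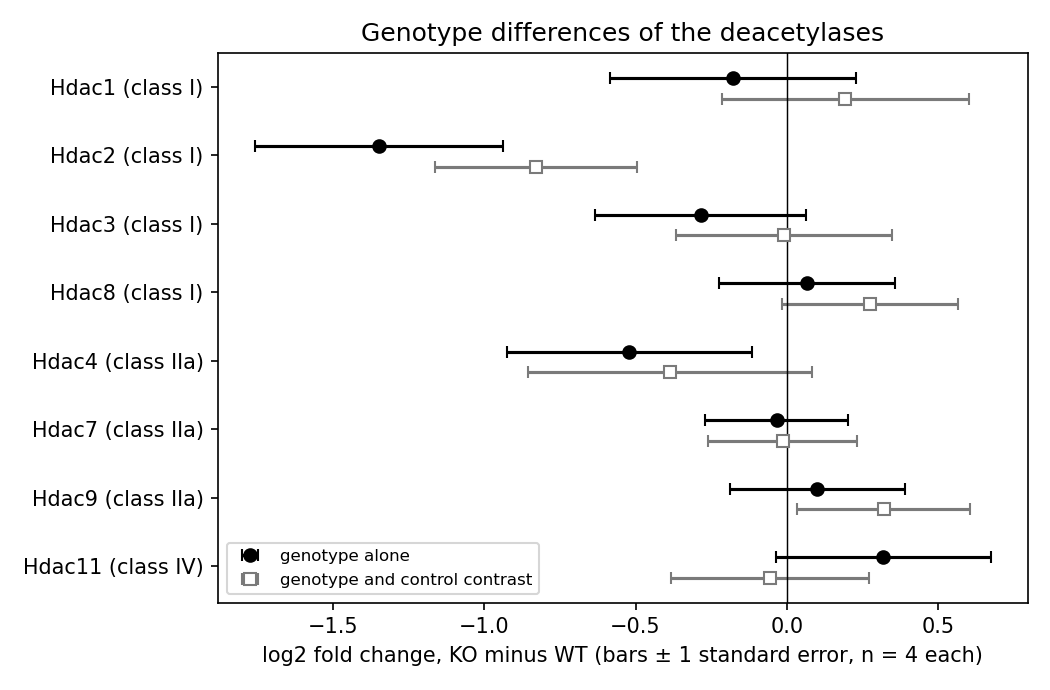
Log2 fold change of each deacetylase, KO minus WT (horizontal axis, bars ± 1 standard error, n = 4 each), from genotype alone (black circles) and with the control contrast of the arrays as a covariate (open grey squares). Hdac2 stands at -1.35 with genotype alone and at -0.83 with the covariate, and Hdac1 and Hdac11 change sign.

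The control contrast of the arrays moved with some of the members. Hdac2 tracked it over the 8 mice (r = 0.84, rho = 0.74), and 3.35% of all probe sets had an r at least as high. KO mice 7, 9 and 6 had the lowest contrast and also the lowest Hdac2 signals, whereas KO mouse 8 had the highest contrast of all and the highest Hdac2 signal among KO mice. Without KO mice 7 and 8, the mice farthest from the median contrast, r was 0.86. With the contrast as a covariate the log2 fold change of Hdac2 was -0.83 (standard error 0.33), no longer at the cutoff. Contrast averaged 3.13 ± 0.83 log2 in KO and 3.82 ± 0.53 log2 in WT mice (SD, n = 4 each), and its part in the Hdac2 difference was not tested. Taken as deviations from the genotype means, a description added after the values had been seen, r was 0.83 for Hdac2 and -0.75 for Hdac11.

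Hdac11 ran the other way (r = -0.78, rho = -0.76, adjusted p = 0.0945 for r and 0.154 for rho, exact 2-sided permutation tests adjusted over the 8 members). A value of r at least as low was found for 10.8% of all probe sets. Its r was -0.56 without KO mice 7 and 8, and its log2 fold change became -0.056 with the covariate. The remaining 6 members had r between 0.25 (Hdac7) and 0.63 (Hdac3), with adjusted p from 0.239 to 0.543 by the same exact test. These adjustments counted Hdac2, which led to the choice of the family, so the adjusted p-values may be too low. Hdac1 had an r of 0.59 (0.22 without KO mice 7 and 8), and with the covariate its log2 fold change was 0.19 (standard error 0.41).

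**Figure D3:**
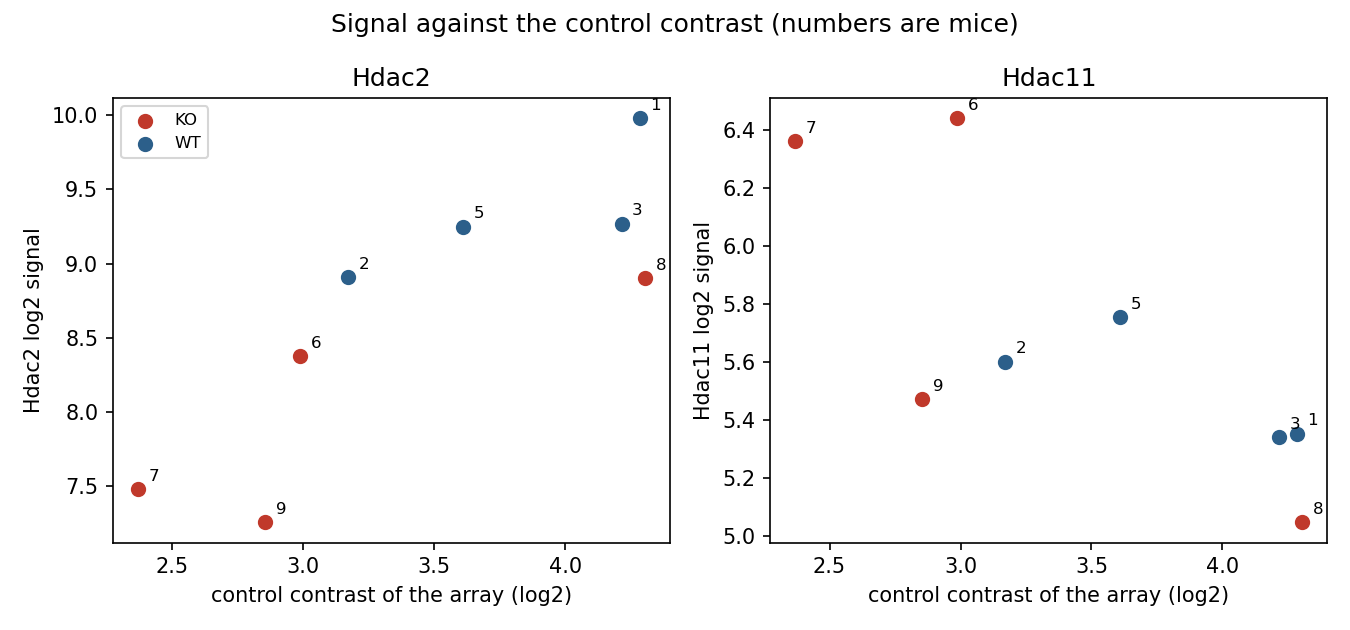
Log2 signal of Hdac2 (left) and Hdac11 (right) against the control contrast of the array (log2), with KO mice in red, WT mice in blue and mouse numbers beside the points. Hdac2 is high and Hdac11 low where contrast is high (r = 0.84 and r = -0.78 over 8 mice), and KO mouse 8 lies with the WT arrays of high contrast.

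Leaving out 1 mouse at a time moved Hdac2 between -1.65 (without KO mouse 8) and -1.10 (without KO mouse 9). It stayed at the cutoff in 3 of these 8 fits, those without KO mouse 6, KO mouse 8 or WT mouse 2. The cutoff was missed without KO mouse 7 (-1.17), KO mouse 9 (-1.10), WT mouse 1 (-1.14), WT mouse 3 (-1.38) or WT mouse 5 (-1.38). Since Hdac2 led to the choice of the family, these counts are a description and lend no support to its difference. No other member reached the cutoff in any of the 8 fits. Hdac2, Hdac3, Hdac4 and Hdac11 kept their direction in all 8, and Hdac1, Hdac7, Hdac8 and Hdac9 did not.

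**Figure D4:**
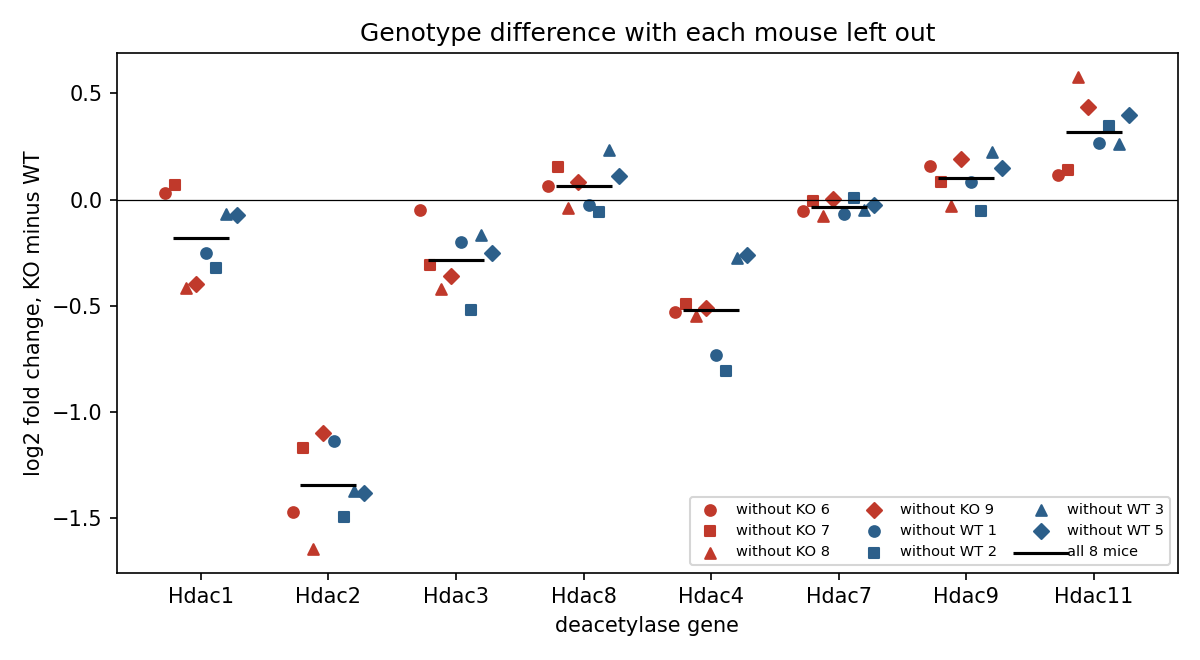
Log2 fold change of each deacetylase, KO minus WT (vertical axis), with all 8 mice (black line) and with each mouse left out in turn (red symbols for KO mice, blue for WT mice). Hdac2 remains between -1.65 and -1.10, Hdac4 moves to -0.28 and -0.26 without WT mice 3 and 5, and Hdac1, Hdac7, Hdac8 and Hdac9 cross 0.

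Between mice, 6 deacetylases (Hdac1, Hdac2, Hdac3, Hdac4, Hdac8 and Hdac9) were compared in pairs. On each array their signals exceeded the median of the negative controls, which does not by itself place them above background. At the 95th percentile of those controls, Hdac4, Hdac8 and Hdac9 passed in 0 mice. Hdac2 passed in 1, Hdac3 in 5 and Hdac1 in 6. All 15 pairs of these 6 genes had a positive r, from 0.11 (Hdac2 and Hdac8) to 0.81. How often pairs of other probe sets had a positive r was not counted. The sign turned for Hdac1 and Hdac2 without KO mice 6 and 7 (r = -0.46) and for Hdac2 and Hdac8 without KO mice 7 and 9 (r = -0.21). Hdac11 ran against the others, with a negative r in 7 of 7 pairs (-0.82 to -0.14), and 3 pairs with Hdac7 were also below 0. After median centring the 21 pairs without Hdac11 all had a positive r (0.16 to 0.86). Single pairs were not established, since 0 of 28 passed 0.05 after adjustment by exact permutation tests of r or rho, with 2 under an unadjusted 0.05 by r, and all pairs share the arrays and their contrast. The most opposed pair was Hdac1 and Hdac11 (r = -0.82, rho = -0.81, adjusted p = 0.238 and 0.203, exact permutation tests). KO mice 6 and 7 were low in Hdac1 and high in Hdac11, and without these 2 mice r was -0.34, so the relation rests on them. The closest pair was Hdac8 and Hdac9 (r = 0.81, rho = 0.71, adjusted p = 0.238 and 0.403, exact permutation tests), with r = 0.63 without WT mice 2 and 3. Hdac4 and Hdac8 had nearly the same order over the mice (rho = 0.93, r = 0.70, adjusted p = 0.0625 and 0.358, exact permutation tests), with r = 0.38 without WT mice 2 and 3.

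The genes most like Hdac2 over the 8 mice were sought among 19571 named probe sets, as a description. The highest r belonged to Ptgds, a prostaglandin D synthase (0.99), the proteasome subunits Psmd2 (0.97) and Psmd6 (0.96), Klhdc10 (0.97) and Gpn1 (0.96). These 5 genes were lower in KO mice by log2 fold changes of -1.39 to -0.60, and their r with the control contrast was 0.77 to 0.89. The lowest r with Hdac2 belonged to the homeobox gene Rhox10 (-0.99), the prolactin family gene Prl8a2 (-0.98) and the olfactory receptors Olfr447 (-0.99), Olfr312 (-0.98) and Olfr394 (-0.97), and these ran against the contrast (r = -0.91 to -0.84). Olfr312 was above the negative control median in 0 of 8 mice, Prl8a2 in 1 and Olfr394 in 2, so these 3 were not shown to measure their genes, while Rhox10 was above it in 7 and Olfr447 in 8. After the genotype means were taken out, Washc3, Med28, Spink10, Ptgds and Malsu1 were closest to Hdac2 (r = 0.98 to 0.99). Spink10 was above the negative control median in 4 of 8 mice and Ptgds in 6. With the genotype means left in, the r of Spink10 with Hdac2 was 0.11, and its log2 fold change was 0.49. All these genes share the same 8 arrays with Hdac2.

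Marker lists of other cells also moved between mice. The Schwann cell and nerve list had 6 of 7 probe sets lower in KO mice and 1 at the cutoff, the myelin gene Mbp (log2 fold change -1.69, standard error 0.43, adjusted p = 0.848 by limma). The mean level of the list was 6.71 to 8.19 log2 in KO and 7.48 to 10.06 log2 in WT mice, with 6 of the 7 probe sets above the mean negative control median. KO mouse 6 (8.19 log2) lay above WT mice 2, 3 and 5 (7.48 to 7.93 log2). Without WT mouse 1, Mal moved from -1.335 to -0.27, Pmp22 from -1.57 to -0.39 and S100b from -0.98 to -0.13. Mbp was then -1.33. WT mouse 1 was highest in this list, in the skeletal muscle list (7.44 log2, against 6.06 to 6.40 log2 in the other WT and 5.87 to 6.21 log2 in KO mice) and in Hdac2. In the skeletal muscle list, 7 of 10 probe sets were lower in KO mice and 6 of 10 were above the mean negative control median. The 1 at the cutoff, Tnnt3, was above the negative control median in 1 of 8 mice, so no loss of muscle signal is read from it. Neutrophil markers were lower in 10 of 11 (median log2 fold change -0.33, list means 15.9 to 18.0 log2 in KO and 17.3 to 18.0 log2 in WT mice), none at the cutoff. KO mouse 6 alone was low (15.9 log2, against 17.3 to 18.0 log2 in KO mice 7, 8 and 9). Without KO mouse 6, Elane moved from -1.53 to -0.73, Prtn3 from -1.49 to -0.58, Ctsg from -0.84 to -0.15 and Ltf from -0.59 to -0.14. AF and fibrocartilage markers were lower in 11 of 14 (median -0.38), none at the cutoff, with 11 of 14 above the mean negative control median and list means of 10.18 to 11.56 log2 in KO and 10.79 to 12.15 log2 in WT mice. Acan, the main disc proteoglycan, gave -1.29 (standard error 0.75, and -0.72 without KO mouse 7), and Comp -0.80 (standard error 0.59, and -0.27 without WT mouse 3). Nucleus pulposus markers were higher in 6 of 7 (median 0.39, list means 8.13 to 9.66 log2 in KO and 7.27 to 9.48 log2 in WT mice), none at the cutoff. The highest list mean was that of KO mouse 6, while KO mice 7, 8 and 9 had 8.13, 8.58 and 8.19 log2. When KO mouse 6 was left out, Krt8 fell from 0.66 to -0.20 and Car3 from 0.58 to -0.090. Shh rose from 0.39 to 0.61 in that fit, and it was 0.073 when KO mouse 7 was left out. All 5 erythroid probe sets were higher in KO mice (list means 12.15 to 13.18 log2 in KO and 10.79 to 13.15 log2 in WT mice), none at the cutoff. WT mouse 1 alone was low (10.79 log2, against 12.13 to 13.15 log2 in the other WT mice). Without WT mouse 1, Slc4a1 moved from 0.84 to 0.096, Klf1 from 0.53 to 0.21, Epb42 from 0.59 to 0.23 and Alas2 from 0.88 to 0.60. The B cell list had 4 probe sets lower and 4 higher in KO mice (median -0.0021), and the endothelial list 4 and 4 (-0.0062). The macrophage list had 5 lower and 4 higher (-0.0039) and the adipocyte list 2 and 4 (0.15), with none of these at the cutoff. The part of all these cells in the Hdac2 difference was not tested. Without WT mouse 1 it was -1.14.

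Partners of the deacetylases and other acetylation genes were lower in KO mice more often than higher, and none passed the cutoff. In these 11 lists, made with earlier results of these data known, 76 of 90 probe sets (86 genes) were lower and 14 higher, with 0 at the cutoff beside 0.725% of all probe sets. Over all probe sets tested, 10573 were lower and 11633 higher. Most probe sets of the 11 lists had a mean above the mean negative control median, against 14109 of all 22206. The share lower in KO among probe sets of like signal was not counted. All these probe sets share the arrays and their contrast. With the control contrast as a covariate the list medians turned positive for the CoREST (0.10), NCoR and SMRT (0.05), sirtuin (0.04) and class IIb lists (0.03). The sirtuin median was also positive after quantile normalization (0.011). Single mice turned the same 4 medians, with 0.10 for NCoR and SMRT without KO mouse 6, 0.028 for CoREST without KO mouse 7, 0.12 for class IIb without KO mouse 7 and 0.0042 for sirtuins without WT mouse 1.

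Among partners of class I, 11 of 12 Sin3 probe sets were lower (median log2 fold change -0.34, and -0.12 without KO mouse 6), with Sap30, a subunit that ties Hdac1 and Hdac2 to Sin3, at -0.69 (standard error 0.27, adjusted p = 0.848 by limma). Sap30 was 9.87 to 10.63 log2 in KO and 10.57 to 11.06 log2 in WT mice, so the ranges overlapped. Of 11 NuRD probe sets 9 were lower (median -0.26). Gatad2b, a scaffold of NuRD, stood at 10.46 to 12.06 log2 in KO and 11.71 to 13.42 log2 in WT mice, and its genotype difference was -1.36 log2 (standard error 0.44, limma adjusted p = 0.848). The CoREST list had 9 of 12 probe sets lower (median -0.12), including the histone demethylase Kdm1a (-0.35, standard error 0.50, and 0.051 without KO mouse 7). In the NCoR and SMRT list 2 of 3 were lower, with Tbl1xr1 at -1.32 (standard error 0.58, adjusted p = 0.848 by limma), or -0.75 without KO mouse 6. None of these lists had a probe set at the cutoff.

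Among partners of class IIa, the 4 MEF2 factors were all lower in KO mice (log2 fold changes -0.42 to -0.15), with Mef2a at -0.41 (standard error 0.34, and -0.14 without WT mouse 3) and Mef2c at -0.39 (standard error 0.37, and -0.19 without KO mouse 6). Of the 15 kinases that drive class IIa proteins out of the nucleus 13 were lower (median -0.39), with Sik1 at -1.42 (standard error 0.62), Sik2 at -0.69 (standard error 0.30) and Camk2g at -1.16 (standard error 0.68). Camk2g rested on WT mouse 1 (11.19 log2, against 7.69 to 8.33 log2 in the other WT mice) and was -0.39 without it. Sik1 was highest in WT mouse 3 (11.40 log2) and was -0.86 without it, and Sik2 was above the negative control median in 5 of 8 mice. Of the 7 genes for 14-3-3 proteins 6 were lower (median -0.48), led by Ywhaq (-0.91, standard error 0.36) and Ywhah (-1.36, standard error 0.55). Ywhah was highest in WT mouse 1 (16.44 log2) and was -0.75 without it. None of these partners was at the cutoff, and the adjusted p of the genes named was 0.848 to 0.852 by limma.

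The enzymes that add acetyl groups and the proteins that read them ran the same way. Of 12 acetyltransferase probe sets 11 were lower (median -0.47), among them Crebbp (-0.72, standard error 0.49, and -0.46 without WT mouse 5) and Kat7 (-0.82, standard error 0.50, and -0.40 without KO mouse 7). Of 6 acetyl-lysine readers 5 were lower (median -0.51). Of 6 sirtuins, the NAD-dependent deacetylases outside this family, 5 were lower (median -0.10). None was at the cutoff.

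Hdac2 drew interest through RANKL, the cytokine that drives osteoclast formation, and those genes did not move together. Of 20 probe sets of the RANKL axis and osteoclasts, 9 were lower and 11 higher in KO mice (median log2 fold change 0.09, but -0.13 with array weights and -0.17 without WT mouse 1). Tspan5, a tetraspanin, was at the cutoff and did not overlap (6.93 to 8.16 log2 in KO, 8.27 to 9.11 log2 in WT mice, log2 fold change -1.12, standard error 0.33, adjusted p = 0.848 by limma). The paper had already named Tspan5, with Hdac2, as downregulated on these same arrays, so its call is a description and no support. Over all probe sets, 0.725% reached the cutoff and 2.53% did not overlap. The osteoclast phosphatase Acp5 was 15.12, 16.30, 17.15 and 17.02 log2 in KO mice 6, 7, 8 and 9, against 15.06, 16.48, 15.85 and 13.52 log2 in WT mice 1, 2, 3 and 5 (log2 fold change 1.17, standard error 0.64, adjusted p = 0.848 by limma). Its genotypes overlapped, and without WT mouse 5 the difference was 0.61. The fusion protein Dcstamp gave 0.66 (standard error 0.36) and Fos, which RANKL induces, -1.31 (standard error 0.64). Fos was highest in WT mouse 3 (13.58 log2) and was -0.59 without it.

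In the list for chondrocyte hypertrophy and osteoblasts, the setting in which Hdac4 is best known, 7 of 10 probe sets were higher in KO mice (median 0.30) and 0 were at the cutoff. The bone matrix gene Ibsp gave 1.12 (standard error 0.46, and 0.74 without WT mouse 5) and the collagenase Mmp13 0.84 (standard error 0.56, and 0.47 without WT mouse 1). Sox9, the transcription factor of chondrocytes, gave -0.97 (standard error 0.67, and -0.35 without WT mouse 3), and the hypertrophy collagen Col10a1, named after its value was seen, -0.43. The adjusted p of Ibsp, Mmp13 and Sox9 was 0.848 each by limma. Ihh, a signal of hypertrophic cartilage, was above the negative control median in 1 of 8 mice, and no change is read from it.

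**Figure D5:**
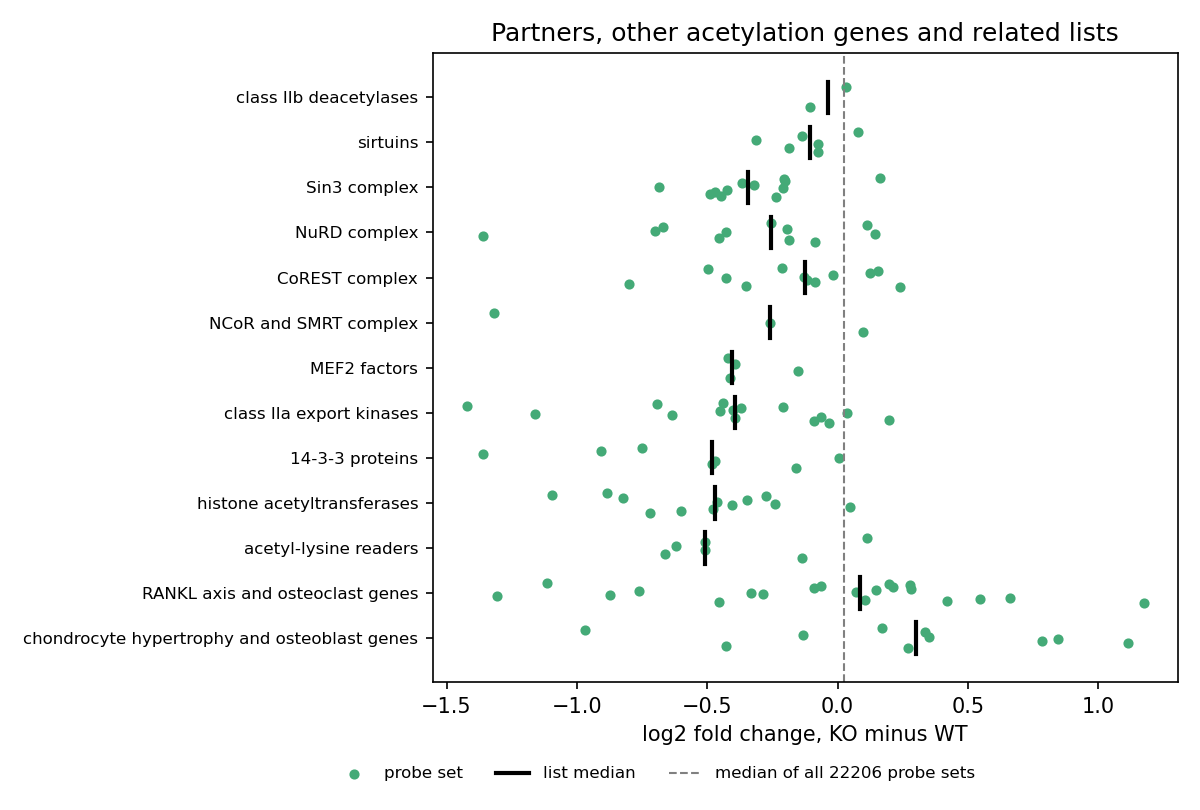
Log2 fold change, KO minus WT (horizontal axis), of each probe set (points) in 13 lists of deacetylase partners, other acetylation genes and skeletal genes, with the list median (black bars) and the median of all probe sets (dashed line, 0.03). The other lists have their median below the dashed line, and the RANKL and chondrocyte lists lie above it at 0.09 and 0.30.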

How the data were processed

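The deposited table holds the authors' log2 signals of 28846 probe sets after sst-RMA in the Transcriptome Analysis Console, 1 column a mouse, from AF RNA on Mouse Clariom S arrays. Control probe sets (6640) were used only for background. For the 22206 others, KO minus WT differences came from lmFit and eBayes of limma 3.58.1 (R 4.3.3) with no covariate and Benjamini-Hochberg adjustment over all. The detection filter of the study could not be repeated, since the values used here hold no detection p, and no genome build is given in the sources used here. Array medians were kept as deposited. Members and lists were chosen with earlier results of these data known.

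Genes named are the members, Hdac6, Hdac10, Abcc6, at most 4 genes of smallest p in each list, and the 5 genes with the highest r, the 5 with the lowest r and the 5 with the highest r within genotype to Hdac2. Where a gene had several probe sets, that of highest mean gave its values, and all counted in the lists. Exact permutation tests ran over all 40320 orders of the 8 mice. The alternatives were quantile normalization, median centring, a filter on low signal, an intensity trend with robust priors, array weights, the control contrast as covariate, an unpaired test on each probe set alone (the study does not name the test behind its array p-values) and leaving out each mouse. The fit was tested on simulated data. Genotypes are those of the labels, and the number of arrays limits the precision.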

Additional observations from a re-analysis of the deposited data

Results flagged for a closer look

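No deacetylase had a mouse that stood apart from the other 3 of its genotype, by the ratio of the gap to its neighbour over the whole range (Dixon's test). Among the 196 genotype groups of the genes named, 8 had such a mouse, and chance flags about 1 in 20. They were the Sin3 gene Brms1l in KO mouse 9 (4.84 log2), the NCoR gene Gps2 in WT mouse 1 (8.97 log2), Mef2d in KO mouse 7 (8.27 log2) and in WT mouse 3 (10.03 log2), the matrix gene Comp in WT mouse 3 (16.33 log2), Mbp in KO mouse 8 (7.27 log2), the myelin gene Mal in WT mouse 1 (12.42 log2) and the endothelial receptor Tek in KO mouse 9 (6.52 log2).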

How the results depend on the processing

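Hdac2 was lower in KO mice in all 15 alternatives. It was at the cutoff in 7 of them, with quantile normalization (-1.22), median centring (-1.40), the filter on low signal, array weights (-1.49) and without KO mouse 6, KO mouse 8 or WT mouse 2. It was not with the intensity trend and robust priors, the control contrast as covariate (-0.83), the unpaired test or without any of the other 5 mice. Because Hdac2 led to the choice of the family, its direction and these counts are a description and no support for its difference. Over single mice left out, the log2 fold change of Hdac1 ran from -0.42 to 0.070, of Hdac8 from -0.059 to 0.23, of Hdac7 from -0.077 to 0.0076 and of Hdac9 from -0.053 to 0.22. The direction also turned for Hdac1 with quantile normalization (0.048) and with the covariate (0.19), for Hdac8 and Hdac9 with array weights (-0.053 and -0.042) and for Hdac11 with the covariate (-0.056). The cause was not tested. No other member reached the cutoff in any alternative, and no probe set, Hdac2 included, reached an adjusted p under 0.05 in any.

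The count of all probe sets at the cutoff was 94 with the filter on low signal (53 higher, 41 lower in KO), 704 with array weights (406 higher, 298 lower), 71 with the covariate (31 higher, 40 lower) and 73 by the unpaired test (45 higher, 28 lower). It ran from 49 without WT mouse 3 to 992 without KO mouse 8 (higher 29 to 608, lower 20 to 384). The relation of the members to the control contrast kept its direction under each alternative, except that without KO mice 7 and 8 the r of Hdac7 was -0.22. No paired analysis was made, since the labels give no pairing of KO with WT mice. With 4 arrays a genotype, precision was limited for all members. Hdac7 and Hdac11 lay near background, so their probe sets were not shown to measure these genes in every mouse.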
